A study of Saccharomyces cerevisiae with 9 samples.

Results

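The 10 genes described here encode the cytosolic route that makes fatty acids in Saccharomyces cerevisiae and the membrane-bound cycle that lengthens them. They are defined by their names, as 10 of the 6629 open reading frames counted in the series, and all 10 passed the filter on low counts that left 5090 genes for testing. ACC1 encodes acetyl-CoA carboxylase, which makes malonyl-CoA. FAS1 and FAS2 encode the beta and alpha subunits of the fatty acid synthase, and ACB1 encodes the acyl-CoA-binding protein. ELO1, ELO2 and ELO3 encode the elongases of the endoplasmic reticulum, and IFA38, PHS1 and TSC13 encode the ketoacyl reductase, the hydroxyacyl dehydratase and the enoyl reductase of the same cycle.

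RNA sequencing covered 3 strains with 3 libraries each, all grown exponentially in SD medium, and all carrying HISDel1, LEU2Del0, MET15Del0 and URA3Del0. The control strain has the nourseothricin marker at HO (HO::NATR). Overexpression comes from a TEF promoter placed with the marker before YET3 (NATR::TEFpr-YET3), so the gene is driven by a promoter that is not its own. The third strain is labelled as having YET3 replaced by the marker (DelYET3::NATR). The series is about how sterol synthesis is controlled where organelles touch, and YET3 encodes an endoplasmic reticulum membrane protein.

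Fatty acid synthesis starts when ACC1 carboxylates acetyl-CoA to malonyl-CoA, from which the synthase builds long saturated acyl chains. In the elongation cycle an elongase condenses an acyl-CoA with malonyl-CoA, and the reductase, the dehydratase and the enoyl reductase then restore a saturated chain. ELO1 acts mainly on medium and long chains, while ELO2 and ELO3 make the very long chains used in yeast sphingolipids. In yeast, genes of fatty acid synthesis are known targets of the regulators Ino2 and Ino4, which also act on phospholipid genes.

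Libraries held between 223189 and 1634021 counts, and 1 count was worth 0.612 to 4.48 CPM, the share of a library expressed on a common total. Where no other scale is given, levels below are CPM scaled by TMM, a correction for library composition. The first principal component carried 50.3% of the variance and set overexpression library 3 and the libraries labelled deletion 1 and 3 apart from the other 6. These 3 are called the divergent libraries here. No control library is among them, and results that rest on them are given with and without them. They were picked from the levels in these same libraries, so adjusted p-values from fits that leave them out or give them a term may be too small. YET3 stood between 477 and 479 CPM in the control libraries and at 2261, 2029 and 1341 CPM in overexpression 1 to 3. The libraries labelled YET3 deletion still held 728, 328 and 639.5 CPM at YET3 in deletion 1 to 3. Deletion 1 and 3, both divergent, were above every control at YET3, and deletion 2 was below every control. This row goes against their label unless it counts sequence outside the deleted part. The cause of these YET3 levels was not tested.

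The stretches upstream of ACC1, FAS1, FAS2 and ELO1 are shown because the differences described below turn on these genes. Each is 300 bases long and starts 400 bases before the start codon, in build R64 (RefSeq annotation), 5′ to 3′ on the strand of its gene, and none overlaps an annotated gene. Capitals mark matches on either strand to CATGTG (the core of the element bound by Ino2 and Ino4), TTACCCG (the Reb1 site), TCGTATA (a sterol response element) or ACTCAACAA (a low oxygen response element).
ACC1 (chrXIV:661475-661774, minus strand): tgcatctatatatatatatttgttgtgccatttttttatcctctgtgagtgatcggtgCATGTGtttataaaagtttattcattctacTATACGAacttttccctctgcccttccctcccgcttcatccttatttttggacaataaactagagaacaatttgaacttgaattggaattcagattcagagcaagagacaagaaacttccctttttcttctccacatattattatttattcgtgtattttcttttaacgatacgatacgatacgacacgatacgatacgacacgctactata
FAS1 (chrXI:100271-100570, plus strand): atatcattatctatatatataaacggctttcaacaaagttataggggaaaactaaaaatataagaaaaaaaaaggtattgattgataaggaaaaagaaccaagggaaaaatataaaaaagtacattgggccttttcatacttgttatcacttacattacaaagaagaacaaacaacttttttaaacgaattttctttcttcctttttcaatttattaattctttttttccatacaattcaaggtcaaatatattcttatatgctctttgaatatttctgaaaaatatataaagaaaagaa
FAS2 (chrXVI:108252-108551, plus strand): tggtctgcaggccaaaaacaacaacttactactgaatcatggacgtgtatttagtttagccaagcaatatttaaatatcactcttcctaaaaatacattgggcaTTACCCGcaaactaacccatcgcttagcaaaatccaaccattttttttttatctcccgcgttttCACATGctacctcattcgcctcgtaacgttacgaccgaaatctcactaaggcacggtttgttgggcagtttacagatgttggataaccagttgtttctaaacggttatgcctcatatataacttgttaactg
ELO1 (chrX:68883-69182, minus strand): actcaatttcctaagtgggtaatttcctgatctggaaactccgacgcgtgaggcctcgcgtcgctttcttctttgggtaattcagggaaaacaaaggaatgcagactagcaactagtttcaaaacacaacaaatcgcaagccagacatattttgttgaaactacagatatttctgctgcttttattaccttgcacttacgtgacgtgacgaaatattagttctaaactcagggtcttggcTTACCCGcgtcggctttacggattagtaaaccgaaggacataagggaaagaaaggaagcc

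Within 500 bases before the start codon, CATGTG was found for ACC1, FAS2, ELO2 and PHS1, which is 4 of the 10 genes, and in 13.2% of the 6000 windows of that length before annotated protein-coding genes. The matches of ELO2 and PHS1 are given with 11 bases on each side, as they lie outside the stretches above.
ELO2 (chrIII:190414-190441, plus strand): ttgtacgtattCACATGtcctggcgtgc
PHS1 (chrX:245325-245352, plus strand): ttatacaataaCACATGtatttcctaac
TTACCCG was found for ELO1, FAS2 and ACB1 and in 10.1% of windows, TCGTATA for ACC1 and in 7% of windows, and ACTCAACAA for 0 of the 10 and in 0.383% of windows. In these searches the 4 motifs did not share a match, and a match is a run of letters only. FAS1 held no match to these letters in its window. A second search covered the 250 bases before the start codon and the 50 from it on. CATGTG was found there for FAS2 and ELO2, 2 of the 10, and in 6.93% of 6001 windows. TTACCCG was found there for ELO1, 1 of the 10, and in 7.08% of windows. TCGTATA and ACTCAACAA were found there for 0 of the 10, and in 4.15% and 0.167% of windows.

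In the control strain the 10 genes spanned a wide range of levels. Levels were compared between genes as CPM per kilobase of coding length. The part of a transcript that was counted (not given in the sources used here) bears on this scale: if counts came from 1 end only, it favours short genes such as ACB1, with a coding length of 264 bases. ACB1 led at 2314 ± 109 CPM per kilobase (SD, n = 3). TSC13 followed at 244 ± 17.1 and FAS2 at 237 ± 26.6 CPM per kilobase, and the libraries of these 2 genes overlapped. PHS1 stood at 204.5 ± 11.6 CPM per kilobase, apart from its neighbours in the order. FAS1 at 153 ± 9.36, IFA38 at 145 ± 12.6, ELO1 at 132 ± 16.7 and ACC1 at 123 ± 9.94 CPM per kilobase formed a run in which each gene overlapped the next. ELO3 stood at 102 ± 8.32 and ELO2 was lowest at 72.3 ± 11.4 CPM per kilobase, and neither overlapped its neighbours.

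The first comparison asked how these genes differ when YET3 is overexpressed. The elongase gene ELO1 fell to a level 2.71-fold below the control, while FAS1 stood 1.83-fold and ACC1 1.66-fold above it without passing the test. By edgeR's quasi-likelihood test with Benjamini-Hochberg adjustment over all 5090 genes, 1 of the 10 genes was called, against 0.845% of all genes. The median log2 fold change of the 10 was 0.32, beside -0.0019 for all genes tested, with 8 positive and 2 negative values. Overexpression and control libraries did not overlap for 4 of the 10 genes (ACC1, FAS1, ELO1 and IFA38), against 17.0% of all genes. These are bulk values, so a change in every cell and a change in some cells of a culture cannot be told apart.

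**Figure D1:**
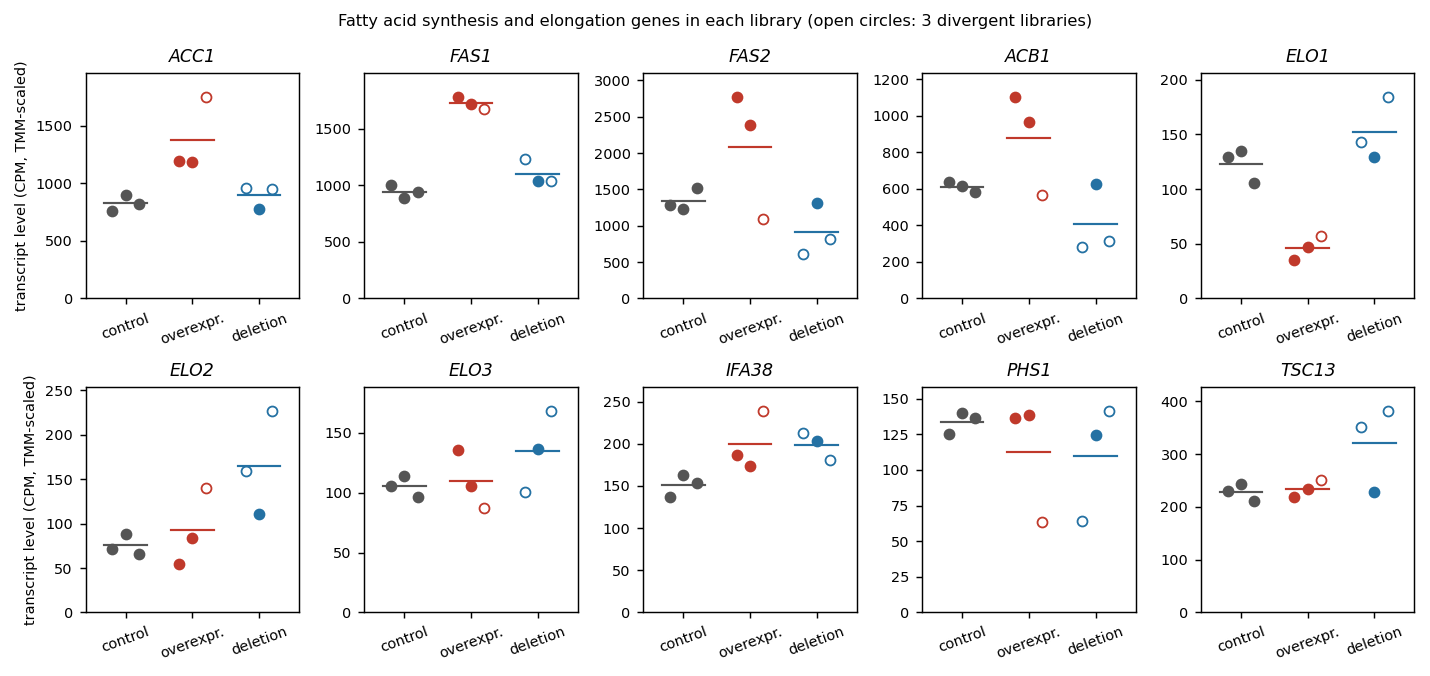
Transcript level (vertical axes, TMM-scaled CPM, each starting at 0) of the 10 genes in each of 9 libraries, with circles for libraries, bars for group means and open circles for the 3 divergent libraries. ELO1 sits between 35.0 and 56.9 CPM in the overexpression libraries, below every other library. FAS2 is low in the open circles. ACB1 is low in the open circles of the labelled deletion and only just below the control in that of overexpression.

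ELO1 (YJL196C, build R64, chromosome X, 67850 to 68782, minus strand, 1 coding exon) stood at 129.5, 135 and 105.5 CPM in control libraries 1 to 3. It stood at 35.0, 47.3 and 56.9 CPM in overexpression libraries 1 to 3, from 21, 30 and 26 counts. The groups did not overlap, and the highest overexpression library was below the lowest control. The log2 fold change was -1.44 (SE 0.26, edgeR adjusted p = 0.0197). The adjusted p was 0.118 with control 1 left out, 0.161 with control 2, 0.0982 with overexpression 1 and 0.105 with overexpression 2, so the call ended with any of these 4 left out, while the log2 fold change stayed between -1.47 and -1.28. In the 6 libraries that were not divergent the log2 fold change was -1.63 (adjusted p = 1.51e-05; at most 0.161 over 17 alternatives).

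ELO2 (YCR034W, chromosome III, 190592 to 191635, plus strand), whose product makes very long chains, stood at 71.8, 88.9 and 65.9 CPM in the control and at 55.1, 83.5 and 140 CPM in overexpression. The groups overlapped, and overexpression 3, a divergent library, was the high one. Its log2 fold change was 0.25 (SE 0.35, edgeR adjusted p = 0.906), and -0.20 without the divergent libraries (adjusted p = 0.813). ELO3 (YLR372W, chromosome XII, 867354 to 868391, plus strand), the elongase gene for the longest chains, stood between 96.7 and 114 CPM in the control and at 135, 106 and 87.5 CPM in overexpression. These ranges overlapped too, and ELO3 gave a log2 fold change of 0.043 (SE 0.26, adjusted p = 0.982).

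The ratio of ELO1 to each of the other elongase genes was lower in every overexpression library than in any control library. The log2 ratio of ELO1 to ELO2 within a library was -0.92 ± 0.34 in overexpression and 0.71 ± 0.13 in control (SD, n = 3 each; exact two-sided permutation test, p = 0.10, the smallest p that 3 against 3 libraries can give, and 0.16 adjusted over 8 ratio tests). The log2 ratio of ELO1 to ELO3 went from 0.22 ± 0.087 to -1.24 ± 0.67 (SD, n = 3 each; exact p = 0.10, adjusted 0.16). With so few libraries these tests could not pass the threshold. The ratio of ELO2 to ELO3 ran from -1.29 to 0.68 on the log2 scale among overexpression libraries, around the control values of -0.56 to -0.36 (exact permutation p = 0.70, adjusted 0.80, n = 3 each).

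FAS1 (YKL182W, chromosome XI, 100671 to 106826, plus strand), the beta subunit gene, stood at 1002, 887 and 941 CPM in the control and at 1779, 1717 and 1680 CPM in overexpression. The 3 overexpression libraries lay close together and well above the control. The log2 fold change was 0.87 (SE 0.19) and missed the threshold (edgeR adjusted p = 0.0628). FAS1 passed when the divergent libraries were left out (0.89, adjusted p = 4.26e-05), when they had their own term in the fit (0.86, adjusted p = 0.00385) and by the DESeq2 Wald test (0.88, adjusted p = 3.11e-04), and its adjusted p reached 0.498 over 17 alternatives.

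FAS2 (YPL231W, chromosome XVI, 108652 to 114315, plus strand), the alpha subunit gene, stood at 1282, 1236 and 1517 CPM in the control. Overexpression 1 and 2 stood above every control at 2765 and 2383 CPM, and overexpression 3 below every control at 1098 CPM. The log2 fold change was 0.63 (SE 0.34, edgeR adjusted p = 0.744). With the divergent libraries left out, overexpression 3 among them, it was 0.95 (adjusted p = 2.00e-05; at most 0.992 over 17 alternatives). With overexpression 3 alone left out the value was 0.94 (adjusted p = 0.225).

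The log2 ratio of FAS1 to FAS2 was between -0.69 and -0.36 in the control libraries. It was -0.64, -0.47 and 0.61 in overexpression libraries 1 to 3. Libraries 1 and 2 lay inside the control range and library 3 lay above it (exact two-sided permutation test over the groups, p = 0.60, adjusted 0.80, n = 3 each). The ratios use CPM without length, so only their change between libraries is read here.

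**Figure D2:**
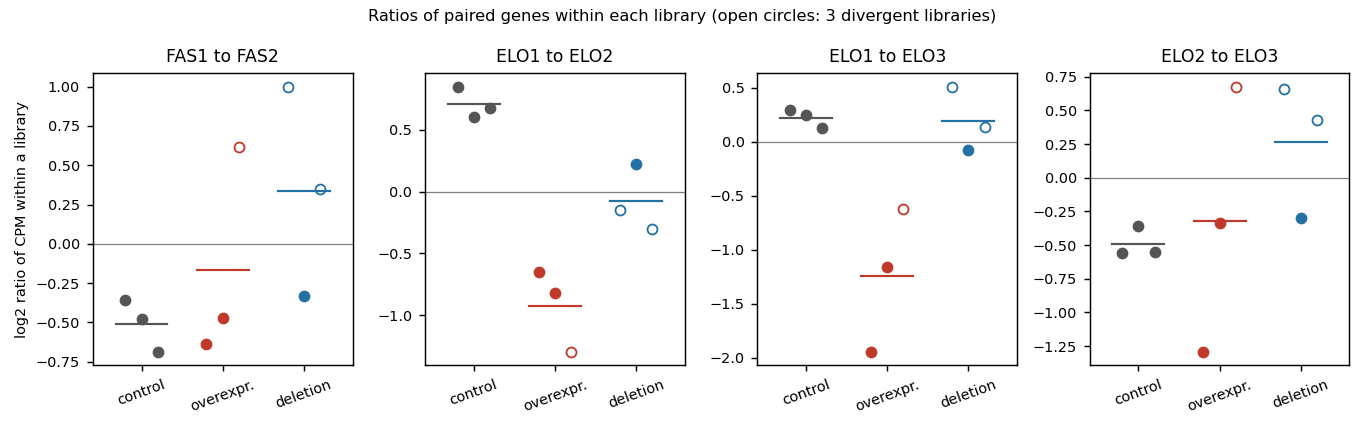
Log2 ratio of the CPM of paired genes within each library (vertical axes), with circles for the 9 libraries, bars for group means and open circles for the 3 divergent libraries. The ratio of FAS1 to FAS2 is above 0 in the 3 open circles and below 0 in the other 6 libraries, and ELO1 to ELO2 is below 0 in all overexpression libraries.

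ACC1 (YNR016C, chromosome XIV, 654673 to 661374, minus strand), the malonyl-CoA gene, stood at 763, 895 and 818 CPM in the control and at 1193, 1184 and 1744 CPM in overexpression. Overexpression 3 was the highest library, and the groups did not overlap. The log2 fold change was 0.73 (SE 0.22, edgeR adjusted p = 0.286). It was 0.52 and passed with the divergent libraries left out (adjusted p = 0.0285; at most 0.992 over 17 alternatives).

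ACB1 (YGR037C, chromosome VII, 559731 to 559994, minus strand), whose product binds and carries acyl-CoA, stood at 637.5, 615 and 580.3 CPM in the control and at 1101, 968 and 567 CPM in overexpression. Like FAS2, it was above every control in libraries 1 and 2. In library 3 it was only just below the lowest control, at 567 against 580.3 CPM. The log2 fold change was 0.52 (SE 0.32, edgeR adjusted p = 0.751). It was 0.76 in the 6 libraries that were not divergent (adjusted p = 7.19e-04; at most 0.992 over 17 alternatives).

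The 3 other genes of the elongation cycle did not pass. IFA38 (YBR159W, chromosome II, 558685 to 559728, plus strand) stood between 136.5 and 162 CPM in the control and at 187, 173 and 238.5 CPM in overexpression, without overlap (log2 fold change 0.40, SE 0.22, edgeR adjusted p = 0.744). PHS1 (YJL097W, chromosome X, 245591 to 246244, plus strand) stood between 125 and 139.7 CPM in the control and at 137, 139 and 63.5 CPM in overexpression, with library 3 alone low (-0.23, SE 0.34, adjusted p = 0.910). TSC13 (YDL015C, chromosome IV, 426002 to 426934, minus strand) stood between 211 and 243 CPM in the control and between 219 and 252 CPM in overexpression (0.035, SE 0.23, adjusted p = 0.986).

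When the divergent libraries were left out, 5 of the 10 genes were called, with ACC1, FAS1, FAS2 and ACB1 higher and ELO1 lower, against 3.15% of 5262 genes. When they had a term in the fit of all 9 instead, 4 of the 10 were called, with FAS1, FAS2 and ACB1 higher and ELO1 lower, against 2.22% of all genes. ACC1 was not called in the fit with the term (0.57, adjusted p = 0.101). With overexpression 3 alone left out, none of the 4 genes was called higher (FAS1 edgeR adjusted p = 0.0638, FAS2 0.225, ACB1 0.600 and ACC1 0.677). ELO1 was called lower in that refit (-1.60, adjusted p = 0.00934). The share of all genes called in that refit was not counted, so a general drop in calls cannot be told apart. In both of the fits that account for all 3 divergent libraries IFA38, PHS1, TSC13, ELO2 and ELO3 did not pass. As the divergent libraries were picked from the same expression values, the calls of both fits describe these libraries and are no independent test.

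**Figure D3:**
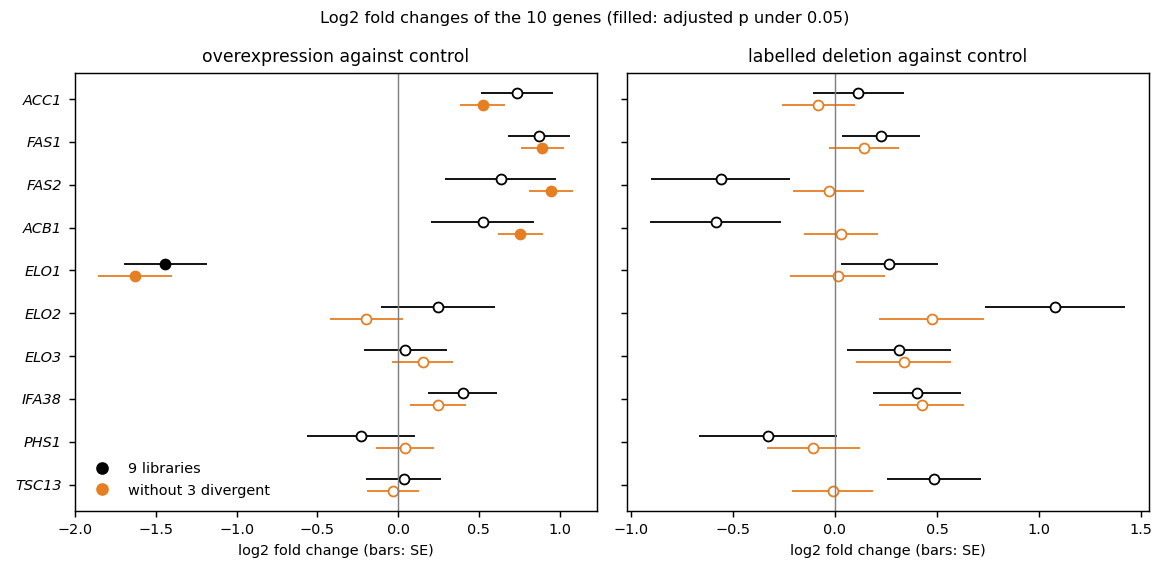
Log2 fold change (horizontal axis, bars SE) of the 10 genes in overexpression (left) and in the libraries labelled YET3 deletion (right) against control, from all 9 libraries (black) and without the 3 divergent ones (orange), with filled circles for an adjusted p under 0.05. ELO1 at -1.44 is the filled black circle on the left, and no circle on the right is filled, where orange rests on deletion 2 alone.

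The second comparison asked how the genes differ in the libraries labelled YET3 deletion. Its control libraries are those of the first comparison. None of the 10 genes passed edgeR's quasi-likelihood test, against 0.0196% of all genes called. The DESeq2 Wald test also called 0 of the 10, with its share over all genes not counted. The median log2 fold change of the 10 was 0.25, beside 0.011 for all genes tested. The libraries did not overlap for 3 of the 10 genes (FAS1, ELO2 and IFA38), against 19.4% of all genes.

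ELO2 had the largest difference, at 159, 111 and 226.5 CPM in deletion 1 to 3, all above the highest control of 88.9 CPM. Its log2 fold change was 1.08 (SE 0.34, edgeR adjusted p = 0.400). Deletion 1 and 3, the higher libraries, are divergent, and without them and overexpression 3 the value was 0.47 (adjusted p = 0.975), from deletion 2 alone. ELO1 stood at 143, 129 and 184 CPM, within or above the control range (log2 fold change 0.27, SE 0.24, adjusted p = 0.597). ELO3 stood at 100.5, 136.5 and 168 CPM, with library 1 inside the control range and libraries 2 and 3 above it (0.31, SE 0.25, adjusted p = 0.558).

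The log2 ratio of ELO1 to ELO2 was also lower in every library labelled YET3 deletion than in any control. It was -0.15, 0.22 and -0.30 in deletion 1 to 3, against 0.60 to 0.85 in the control (exact two-sided permutation test, p = 0.10, the smallest possible, adjusted 0.16, n = 3 each). The difference from control was -0.79 here and -1.63 in overexpression, which share their control libraries. ELO2 to ELO3 was higher in every deletion library than in any control, at 0.66, -0.30 and 0.43, with deletion 2 just above the control (exact p = 0.10, adjusted 0.16, n = 3 each). ELO1 to ELO3 overlapped between the groups and differed by -0.035 (exact p = 1.00, adjusted 1.00, n = 3 each). The ELO1 to ELO2 ratio was thus below the control in both groups of libraries, but from unlike changes. In overexpression ELO1 was lower (log2 fold change -1.44) with ELO2 at 0.25. In the labelled deletion ELO2 was higher without passing (1.08), with ELO1 at 0.27. There the ratio was lowest in deletion 1 and 3, which are divergent.

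FAS2 and ACB1 were low in the same libraries. FAS2 stood at 614 and 815 CPM in deletion 1 and 3, below every control, and at 1306 CPM in deletion 2, inside the control range (log2 fold change -0.56, SE 0.34, edgeR adjusted p = 0.454). ACB1 stood at 283 and 317 CPM in deletion 1 and 3 and at 625 CPM in deletion 2, again inside the control range (-0.58, SE 0.32, adjusted p = 0.435). With the divergent libraries left out the group is deletion 2 alone, so FAS2 at -0.030 and ACB1 at 0.031 restate the position of that library inside the control range. FAS1 did not share this pattern, at 1230, 1039 and 1037 CPM in deletion 1 to 3 (0.23, SE 0.19, adjusted p = 0.579).

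The log2 ratio of FAS1 to FAS2 was 1.00 and 0.35 in deletion 1 and 3 and -0.33 in deletion 2. All 3 lay above the control range, deletion 2 by little (exact two-sided permutation test, p = 0.10, the smallest possible, adjusted 0.16, n = 3 each). Over all 9 libraries the synthase subunit genes thus kept a log2 ratio between -0.69 and -0.33 in the 6 other libraries and between 0.35 and 1.00 in the 3 divergent ones. The divergent libraries were picked from levels that included those of FAS1 and FAS2, so this split is no independent result. How many other gene pairs split in the same way was not counted. The cause of this difference between libraries was not tested.

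ACC1 stood between 780 and 954 CPM in the libraries labelled YET3 deletion (log2 fold change 0.11, SE 0.22, edgeR adjusted p = 0.834). IFA38 stood between 181 and 212 CPM, above the control (0.40, SE 0.21, adjusted p = 0.432). TSC13 was high in deletion 1 and 3, at 352 and 381 CPM, and at 229 CPM in deletion 2 (0.48, SE 0.23, adjusted p = 0.415). PHS1 was low in deletion 1, at 63.9 CPM, and stood at 124 and 141 CPM in deletion 2 and 3 (-0.33, SE 0.34, adjusted p = 0.652). With a term for the divergent libraries edgeR called 0 of the 10 genes, against 0.0196% of all genes. Without these libraries the group is 1 library, whose spread is taken from the other groups. That fit also called 0 of the 10, against 0.095% of 5262 genes, and gives no replicate check of the group.

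Set directly against the libraries labelled YET3 deletion, the overexpression libraries had lower ELO1, with a log2 fold change of -1.71 (SE 0.26, edgeR adjusted p = 0.00673). It was the 1 gene of the 10 called, against 0.727% of all genes. ELO1 missed the threshold when overexpression 2 was left out (-1.73, adjusted p = 0.0520). FAS2 gave 1.19 (SE 0.34, adjusted p = 0.267) and ACB1 1.11 (SE 0.32, adjusted p = 0.270). FAS1 gave 0.65 (SE 0.19, adjusted p = 0.287) and ACC1 0.62 (SE 0.22, adjusted p = 0.514). The other 5 genes lay between -0.83 for ELO2 and 0.099 for PHS1, with adjusted p from 0.648 to 0.999. The libraries did not overlap for ACC1, FAS1 and ELO1, 3 of the 10, against 9.49% of all genes. When the divergent libraries had a term ACC1, FAS1, FAS2 and ACB1 were called higher and ELO1 lower, 5 of the 10, against 2.08% of all genes. With them left out overexpression 1 and 2 were set against 1 library, deletion 2, with its spread taken from the other groups. FAS1, FAS2 and ELO1 were then called, 3 of the 10, against 1.44% of 5262 genes, with no replicate behind the labelled deletion. With overexpression 3 alone left out, all 3 labelled deletion libraries stayed in. FAS2 (2.82-fold higher, adjusted p = 0.0111) and ACB1 (2.53-fold, adjusted p = 0.0335) were then called with ELO1, while FAS1 was not (1.58-fold, adjusted p = 0.129). The share of all genes called in that refit was not counted.

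**Figure D4:**
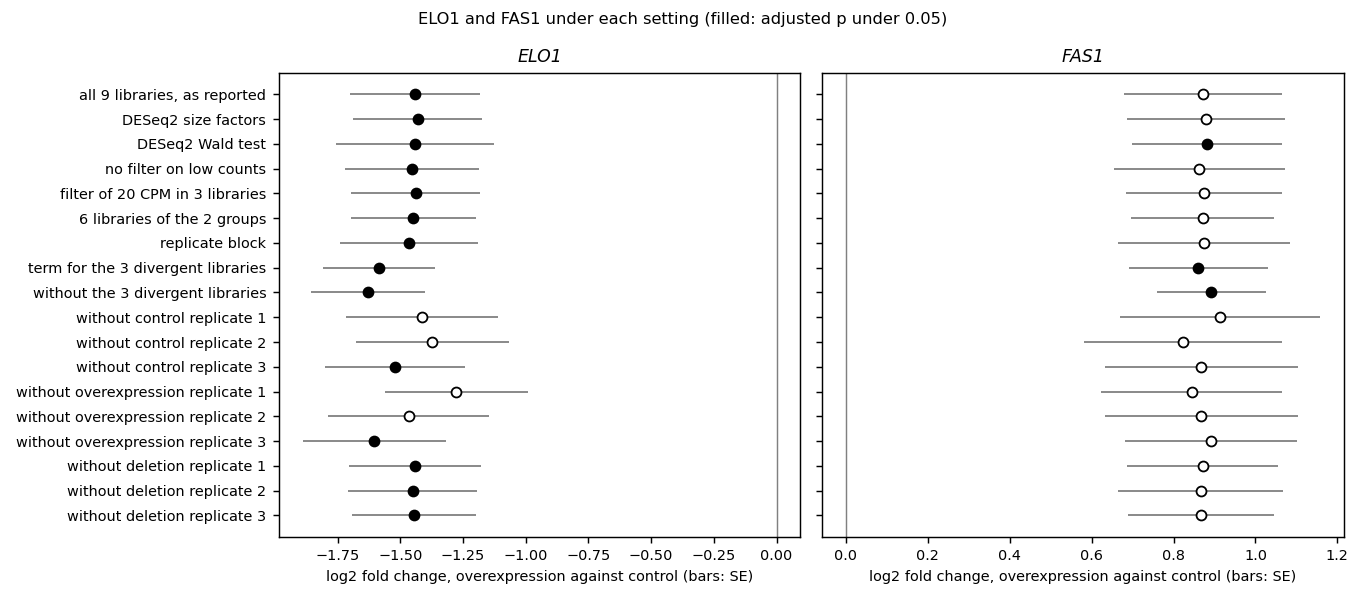
Log2 fold change of ELO1 and FAS1 in overexpression against control (horizontal axis, bars SE) under the reported fit and 17 alternatives (vertical axis), with filled circles for an adjusted p under 0.05. ELO1 stays between -1.63 and -1.28 and FAS1 between 0.82 and 0.91. The ELO1 call ends when some single libraries are left out. FAS1 is called by the DESeq2 Wald test and in both fits that account for the divergent libraries, but in no refit with 1 library left out.

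Of 35 other listed genes of fatty acid metabolism 32 were tested, and POX1, POT1 and PXA1 of peroxisomal beta-oxidation had too few counts. In overexpression edgeR called 1 of the 32 against control, beside 0.845% of all genes. This was OLE1, the fatty acid desaturase gene, which stood at 70.4, 136 and 101 CPM in the control and at 387, 374 and 519 CPM in overexpression (log2 fold change 2.03, SE 0.30, edgeR adjusted p = 0.00627). All 3 overexpression libraries were above every control, the divergent one included, and the adjusted p was 0.0659 with control 1 left out. MGA2, which encodes a membrane-bound activator of OLE1, gave 1.27 (adjusted p = 0.159), and INO2 gave 1.02 (adjusted p = 0.686). INO2 stood at 55.1, 61.5 and 26.3 CPM in overexpression 1 to 3, against 22.1 to 26.4 CPM in the control. Libraries 1 and 2 were thus high and library 3 was not, as for FAS2 and ACB1. This likeness did not hold in the libraries labelled YET3 deletion, where INO2 stood at 10.05, 19.7 and 42.6 CPM. Deletion 3 was above every control for INO2 and below every control for FAS2 and ACB1. INO2 rests on 33, 39 and 12 counts in overexpression 1 to 3 and on 17, 13 and 16 in deletion 1 to 3. FAA4, like FAS2 and ACB1, was above every control in overexpression 1 and 2 and below every control in the 3 divergent libraries. It stood at 250, 211 and 85.3 CPM in overexpression 1 to 3, against 114 to 149.5 CPM in the control. In deletion 1 to 3 it stood at 49.7, 158 and 71.95 CPM. The pattern was thus not particular to FAS2 and ACB1, and its share among all genes was not counted. Of 34 genes tested with the divergent libraries left out 5 were called, beside 3.15% of all genes, with OLE1 (log2 fold change 1.82), MGA2 (0.85), INO2 (1.31) and the acyl-CoA synthetase gene FAA4 (0.91) higher and the aldehyde dehydrogenase gene ALD6 (-0.77) lower.

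The mitochondrial fatty acid synthesis genes, which work apart from FAS1 and FAS2, gave 0 calls among 8 in overexpression against control, beside 0.845% of all genes. Their median log2 fold change was 0.10, beside -0.0019 for all genes tested. The ceramide synthase genes LAG1, LAC1 and LIP1, whose products use very long chains, gave 0 calls among 3 and a median of -0.18. At that share of calls both lists are too small for a count of 0 to be read. In the libraries labelled YET3 deletion edgeR called 0 of the 32 genes against control, beside 0.0196% of all genes. The DESeq2 Wald test called INO4 (-1.07, adjusted p = 0.0238) and left 12 of the 32 without an adjusted p, with the share over all genes not counted. INO4, the partner of INO2, stood at 124, 118 and 90.6 CPM there, against 203 to 286 CPM in the control (log2 fold change -1.08, edgeR adjusted p = 0.288). OPI1, also listed as a regulator of FAS genes, stood at 131, 140 and 107 CPM there, against 192 to 321 CPM in the control. Its log2 fold change was -0.93 (edgeR adjusted p = 0.400). INO1, a reference gene outside the list, stood at 13.6, 6.07 and 13.3 CPM there, from 23, 4 and 5 counts. In the control INO1 stood between 90.1 and 111.5 CPM. Overexpression set against these libraries called INO4 (1.14, adjusted p = 0.0368) and OLE1 (2.16, adjusted p = 0.0037) higher, 2 of the 32, beside 0.727% of all genes. The INO4 call ended with the replicate block (adjusted p = 0.0944), in the fit of 6 libraries (0.147) and with 8 of the 9 single libraries left out (0.0607 to 0.186). It stayed with overexpression 3 left out (0.0335), and over the 9 refits the log2 fold change was between 1.03 and 1.24. OLE1 was called in all of these refits.

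The genes whose pattern over the 9 libraries was most like that of FAS1 and ELO1 were sought among 2799 others whose mean level reached 50 CPM. The measure was the root mean square distance between log2 levels centred on each gene's own mean. For FAS1 the nearest were YEL077C (distance 0.17), YHB1 (0.17), DAP1 (0.18), ERG27 (0.18) and ERV29 (0.18), where the median gene stood at 0.51. YEL077C has near-identical copies at chromosome ends, so its counts are uncertain. YHB1 encodes a flavohemoglobin, DAP1 a heme-binding protein that acts in sterol synthesis, ERG27 a keto reductase of sterol synthesis and ERV29 a cargo receptor of secretory vesicles. For ELO1 the nearest were MUP1 (0.34), ZRT1 (0.37), RTC2 (0.37), ADH4 (0.39) and BAP3 (0.41), with the median gene at 0.85. MUP1 encodes a methionine permease, ZRT1 a zinc transporter, ADH4 an alcohol dehydrogenase and BAP3 an amino acid permease. MUP1 stood between 242 and 295 CPM in the control, between 112 and 137 CPM in overexpression and between 226 and 286 CPM in the libraries labelled YET3 deletion. These distances describe the libraries and carry no test.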

How the data were processed

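Total RNA of 9 yeast libraries was sequenced, and the authors deposited 1 table per library with a raw count for each open reading frame. The submitters' processing notes name cutadapt, UMI-tools and build R64. Not given in the sources used here are the aligner, which part of a gene was counted, whether strand was used, how shared reads were treated and whether counts are of molecules. Reads of overlapping antisense genes cannot be told apart. Whether the 3 libraries of a strain are separate cultures is not in the labels, so p-values reflect spread among libraries that may be technical.

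Each library had 2 repeated identifiers, and the repeats were left out. Of 6629 identifiers 5956 matched a RefSeq locus tag of build R64, the build of the genome used for sequences. edgeR 4.0.16 (R 4.3.3, limma 3.58.1) was run with filterByExpr (minimum count 10, minimum total 15), TMM and 1 quasi-likelihood fit of all 9 libraries with a coefficient per group. Benjamini-Hochberg adjustment ran over 5090 genes at 0.05. Standard errors were obtained from the log2 fold change and F. The fit was also run on simulated counts with known fold changes. These had no divergent libraries, so that run does not bear on the effect of such libraries here. DESeq2 1.42.0, no filter, a filter of 20 CPM in 3 libraries, 6-library fits, a replicate block, a term for or the removal of the divergent libraries, and each library left out were alternatives. Every pair of libraries within a group differed beyond sampling noise (chi-square per degree of freedom 1.58 to 19.1). The members, lists, motifs and alternatives were chosen with earlier results of these data known. All members were named. Of the other listed genes, those called and some with the smallest p-values were named, and the 5 most alike genes were taken for FAS1 and ELO1. The protein motif planned was not searched.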

Additional observations from a re-analysis of the deposited data

How the results depend on the processing

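Over 510 refits of single genes (10 genes, 3 comparisons, 17 alternatives), 456 kept their direction and side of the threshold. Of the rest 18 gained a call, 5 lost one and 31 changed sign, and none of those 31 was called before or after. In overexpression against control, 1 gene was called, 2 with the DESeq2 Wald test, 4 with the term for the 3 divergent libraries, 5 without them, and 0 to 1 with single libraries left out. Against the libraries labelled deletion the count was 1, then 2, 5 and 3 under the same alternatives (the last against deletion 2 alone), and 0 to 3 with single libraries left out. The share of all genes called was not counted for the Wald test or with single libraries left out. A general rise in calls cannot be told apart there. The cause of these moves in the count was not tested.

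Sign changes with the term for the 3 divergent libraries were -0.13 (ELO2) and -0.11 (TSC13) in overexpression, -0.17 (ACC1), 0.080 (FAS2), -0.018 (ELO1) and 0.069 (PHS1) in the labelled deletion, and 0.039 (IFA38) and -0.11 (PHS1) between both. Leaving these libraries out they were -0.20 (ELO2), 0.041 (PHS1) and -0.033 (TSC13), then -0.082 (ACC1), 0.031 (ACB1) and -0.011 (TSC13). IFA38 between both strains gave 0.0068 with DESeq2 size factors, 5.07e-04 with the Wald test and 0.0046 in the 6-library fit. With single libraries left out, overexpression against control ranged from -0.16 to 0.51 (ELO2), -0.14 to 0.17 (ELO3), -0.41 to 0.044 (PHS1) and -0.020 to 0.081 (TSC13). Overexpression against the labelled deletion ranged from -0.15 to 0.091 (IFA38) and -0.21 to 0.39 (PHS1). The log2 ratio differences ranged from -0.047 to 0.58 (FAS1 to FAS2, overexpression), -0.20 to 0.10 (ELO1 to ELO3, labelled deletion) and -0.33 to 0.66 (ELO2 to ELO3, overexpression).

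No pairing by replicate number was seen. Correlations of deviations between same-numbered libraries ran from -0.50 to 0.55, and a library correlated best with its own number in 4 of 18 cases. The divergent libraries weigh on this check, as overexpression 3 gave 0.57 with deletion 1 and -0.74 with deletion 2. A weaker pairing could therefore be missed. With the replicate block the count stayed at 1 in overexpression against control (ELO1 -1.47, adjusted p = 0.0407), 0 in the labelled deletion and 1 between both. ELO1 rests on 21 to 30 counts per overexpression library, which limits its precision.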
